A study of Mus musculus with 2 samples.

Results

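In the circular RNA table of the library labelled non-ISC, 6122 of 18324 entries carried a deposited count but 0 reads across the back-splice junction, the join that closes a circle. Each entry is a genomic interval with a host gene name, a read count, the same count in RPM, reads scaled to a library of 1000000, and a separate number of junction reads. The entries were chosen by their junction value alone, taking every one at 0, which is 33.4% of that table, and the 12202 entries with at least 1 junction read were set beside them. The table of the other library, labelled ISC, held 18438 entries, each with junction reads, and the 2 tables together held 31496 distinct entries.

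Both libraries came from intestine of 2-month-old Lgr5GFP-CreERT2 mice, in which the Lgr5 locus drives GFP and an inducible Cre recombinase. Cells were sorted by flow cytometry into Lgr5- cells, labelled non-ISC, and Lgr5+ intestinal stem cells, labelled ISC. Total RNA was depleted of ribosomal RNA, digested with RNase R (an exonuclease that degrades linear RNA), cut to fragments of about 200 bp and sequenced in read pairs of 150 bases. There was 1 library per group, so no difference below has a replicate check, and intervals printed are exact binomial intervals that cover counting error only. How many mice were used was not given in the sources used here.

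A circular RNA forms when the spliceosome joins the downstream end of an exon to the upstream start of the same or an earlier exon, a reaction called back-splicing. Only a read across that join tells the circle from the linear transcript of the same exons, since the exon sequence itself is shared by both. Such circles are usually made of internal exons of protein-coding genes, because a first exon has no upstream splice acceptor and a last exon no downstream donor.

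Junction reads summed to 76331 over all entries of the library labelled non-ISC and to 156582 over those of the library labelled ISC. A junction value of 0 in the library labelled non-ISC allows up to 3 junction reads, which is 39.3 per 1000000 junction reads. Stem cell and T lineage genes went against the labels, while enterocyte genes stood where the label of Lgr5- cells puts them. Entries of a list of enterocyte genes had 3324 junction reads under the label non-ISC, of which the intestinal epithelial gene Btnl1 gave 2421, and 16 under the label ISC. Entries of T lineage genes had 182 junction reads under the label non-ISC and 7527 under the label ISC, and those of Lgr5 stem cell genes had 201 under the label non-ISC and 67 under the label ISC. Those of cell division genes had 389 under the label non-ISC and 2124 under the label ISC. Per 1000000 junction reads, non-ISC first, enterocyte genes had 43547 and 102 and T lineage genes 2384 and 48071. Lgr5 stem cell genes had 2633 and 428, and cell division genes 5096 and 13565. The other cell type lists were, in the same order, epithelial junction and keratin genes 7219 and 594, and goblet and Paneth genes 773 and 12.8. Enteroendocrine and tuft genes had 511 and 76.6, and myeloid genes 2096 and 1878. B and plasma cell genes had 144 and 4432, and stromal, muscle and endothelial genes 275 and 4886. Lgr5 itself had 2 entries under the label non-ISC, with 7 junction reads between them, and no entry under the label ISC. Every result below that sets the 2 libraries side by side therefore names the library by its label and not by a cell type, and what the difference in cell content contributes was not tested.

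The junctions that these entries would form show what kind of interval they are. Each sequence below holds the last 15 transcribed bases of the interval in capitals and its first 15 in lower case, so that the change of case is the place of the back-splice. These 5 exonic ones are among those with the most junction reads in the library labelled ISC.
Ptpn14, exons 2 to 3, chr1:189786636-189798681, plus strand: GCAGGAGGCCACAAGctgtccggcagagag
Arpp21, exons 2 to 9, chr9:112176095-112187766, minus strand: CAGCAGCACCAGGATgttgtcgaccatgtg
Mad1l1, exons 15 to 16, chr5:140088630-140105605, minus strand: CAAAGGAGGTGGCAGgttgaaggtggagga
Acbd6, exons 4 to 6, chr1:155601454-155624958, plus strand: GGCATTAATTGTCAGgtatcagagaagaag
Rest, exon 2, chr5:77267932-77268823, plus strand: TGCGAACTCACACAGagtacagttatggcc
The entries below had some of the highest counts among those without junction reads, and are shown because their intervals lie inside 1 annotated exon, without reaching both of its ends.
Rpph1, inside its only exon, chr14:50807452-50807731, minus strand: AGACTACTCTCCCCCtgcgtgtcactcttc
Rmrp, inside its only exon, chr4:43492789-43493043, minus strand: TCATTCTCAGCGCGGctgtttcctaggcta
Malat1, chr19:5796193-5796345, minus strand: GGATGAAAAGCAAGCcatcaattttcccct
Coordinates are those of the deposited table. They fell on exon ends of GENCODE release M21 on GRCm38, and the sequences are those of GENCODE M21 transcripts.

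The entries without junction reads were not entries with few reads. Their count had a median of 19 reads (quartiles 7 and 58, from 1 to 803144), against a median of 8 reads (quartiles 2 and 30, up to 490712) for entries with junction reads. In RPM the median was 0.263 for entries without junction reads and 0.111 for those with them. At least 10 reads were counted for 4161 entries without junction reads (68.0%) and for 5825 with them (47.7%). At least 1000 reads were counted for 99 entries without junction reads, against 94 with them. Entries without junction reads summed to 1887300 reads (2.61% of the library total behind the RPM values), and entries with junction reads to 1261341 (1.75%). Beside the threshold, entries with 0 junction reads had a median count of 19. Those with 1 junction read (3803 entries) had a median of 5 and those with 2 (3190 entries) a median of 5. A count of 1 was given for 1495 of the entries with 1 junction read (39.3%), so their count did not exceed it. Among entries with 0 junction reads 394 had a count of 1 (6.44%).

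Entries without junction reads made up a larger share of the table at higher counts. They were 394 of 1889 entries with a count of 1 (20.9%) and 266 of 1878 with a count of 2 (14.2%). Their share was 38.3% between 11 and 20 reads, 44.8% between 101 and 500 reads and 51.3% above 1000 reads, where 99 of 193 entries had no junction read. What the make-up of the entries with junction reads contributes to this rise was not tested. In 6099 of the entries with junction reads the count equalled the junction reads. These had quartiles of 2 and 6 reads and at most 770, so they lie mainly at low counts. The other 6103, whose count exceeded the junction reads, were nearly as many as the 6122 without junction reads.

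The comparison rests on what an entry with junction reads is. In 6099 of the 12202 entries the count equalled the junction reads, with a median of 3 reads, and in the other 6103 it exceeded them, with a median of 26. This split was made after the values were seen, and it selects entries by their count. Against the entries whose count exceeded their junction reads, the median count of entries without junction reads was 0.731 times as high, whereas against all entries with junction reads it was 2.375 times as high. Per kb of genomic span the medians were 5.36 reads without junction reads, 7.29 where the count exceeded the junction reads and 0.525 where it equalled them.

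**Figure D1:**
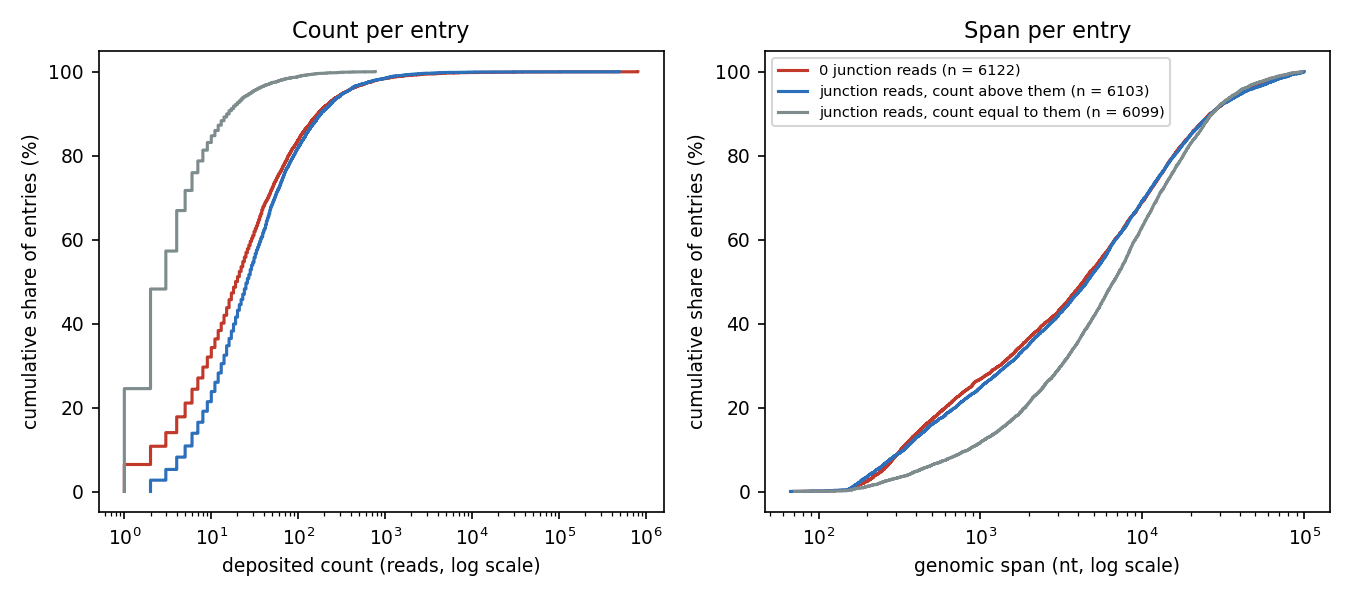
Cumulative share of entries (vertical axis, percent) by deposited count (left, reads, log scale) and by genomic span (right, nt, log scale) in the library labelled non-ISC, for 6122 entries with 0 junction reads, 6103 whose count exceeded their junction reads and 6099 whose count equalled them. The curve of the entries with 0 junction reads runs close to that of the entries whose count exceeded their junction reads, with median counts of 19 and 26, and far from that of the entries whose count equalled them, with a median of 3.

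A few intervals at noncoding RNA and histone genes held most of the reads on entries without junction reads. Rpph1, the RNA subunit of ribonuclease P, had 803144 reads on a 280 nt interval without a junction read, 1.11% of the library total and 42.6% of all reads on such entries. The 10 entries with the highest counts held 68.6%, and all the others together held 592030 reads. Rmrp, the RNA subunit of the RNase MRP complex, had 187877 reads on 255 nt. Malat1, a long nuclear noncoding RNA, had 3 entries among the highest 10, with 39846, 37585 and 17032 reads, and Rn45s, the precursor of ribosomal RNA, had 27034. All of these hosts also had entries with junction reads. For Rpph1 there were 5 of them with 490726 reads in the count and 14 junction reads, and in the library labelled ISC it had 2 entries with 8351224 reads and 5 junction reads.

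The other 4 of the highest 10 were intervals within or across replication-dependent histone genes, which have no introns and so no exon joined by splicing. An interval of 81717 nt named for the transcript fantom3_1200016E24 had 101896 reads and spanned 15 annotated genes, 11 of them histone genes. One named for Hist1h1d had 29501 reads on 40320 nt and also spanned 11 histone genes. Where the reads lay within these long intervals was not tested. The interval named fantom3_4930578O05, within Hist1h4a, had 34545 reads on 87 nt, and Hist2h4 had 16810 reads on 268 nt. Among all entries whose host name begins with Hist, a group formed after the values were seen, 13 of 21 had no junction read (61.9%, interval 38.4 to 81.9), with counts from 107 to 29501. The overall share was 33.4%.

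Exonic entries without junction reads could have high counts as well. Among those bounded by internal exons, Esrra, a nuclear receptor that controls mitochondrial genes, had 8080 reads over exons 4 to 6 and the highest count per kb of spliced length, 14250. Over entries of any class, exonic or not, Esrra had 2, with 14239 reads in all, and neither had a junction read. Rpia, an enzyme of the pentose phosphate pathway, had 2744 reads over exons 4 to 7, the RNA-binding protein gene Raly 2620 over exons 4 to 6, and Actb, cytoplasmic beta-actin, 2271 over exons 2 to 5. Myo7b, a brush border myosin, had 1954 reads over exons 24 to 39, while 13 other Myo7b entries carried 103 junction reads. The entry with the most exons, 34, lay in Rnf213, a large ubiquitin ligase gene, under the name fantom3_4932704A10, with 1630 reads.

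The intervals were somewhat shorter than those of entries with junction reads. Without junction reads the genomic span had a median of 4321.5 nt, with quartiles at 875 and 12762 nt, and with junction reads a median of 5642.5 nt. It was 4555 nt where the count exceeded the junction reads and 6643 nt where it equalled them. Creld2 had the shortest interval, 70 nt with 28 reads, followed by Cdk8 with 75 nt and 3 reads and Ada with 79 nt and 468 reads. The longest were fantom3_F830102J24 within Fhit with 99692 nt and 114 reads, Snx29 with 99650 nt and 54 reads, and Elmo1 with 98062 nt and 297 reads.

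Fewer of the ends lay on annotated exon boundaries. Both ends coincided with exon ends in 3693 entries without junction reads (60.3%, interval 59.1 to 61.6) and in 9287 with them (76.1%, interval 75.3 to 76.9), where the share over all entries was 70.8%. The share was 64.0% where the count exceeded the junction reads and 88.2% where it equalled them. Moving every start by 1 nt left 0.163% of entries without junction reads on an exon start.

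Internal exons of 1 transcript bounded 3614 entries without junction reads (59.0%), against 75.1% of entries with them. These exonic intervals held a median of 4 exons and 571 nt of spliced sequence without junction reads, and 3 exons and 494 nt with junction reads. Their median span was 6612 nt without junction reads and 6673 nt with them, so the difference in span over all entries was not present among exonic ones. The first or last exon of a transcript bounded 3 entries without junction reads and 9 with them.

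Intervals that overlapped a gene with neither end on an exon end were the second largest class. An overlap of 1 nt was enough, so some of them spanned several genes. They made up 1414 entries without junction reads (23.1%, interval 22.0 to 24.2) and 11.7% of entries with them. The share was 19.2% where the count exceeded the junction reads and 4.15% where it equalled them. Their median span was 424.5 nt without junction reads and 453 nt with them, and 29.3% of those without junction reads lay whole within 1 exon. In a further 14.6% of entries without junction reads 1 end lay on an exon end, against 9.96% of those with junction reads.

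**Figure D2:**
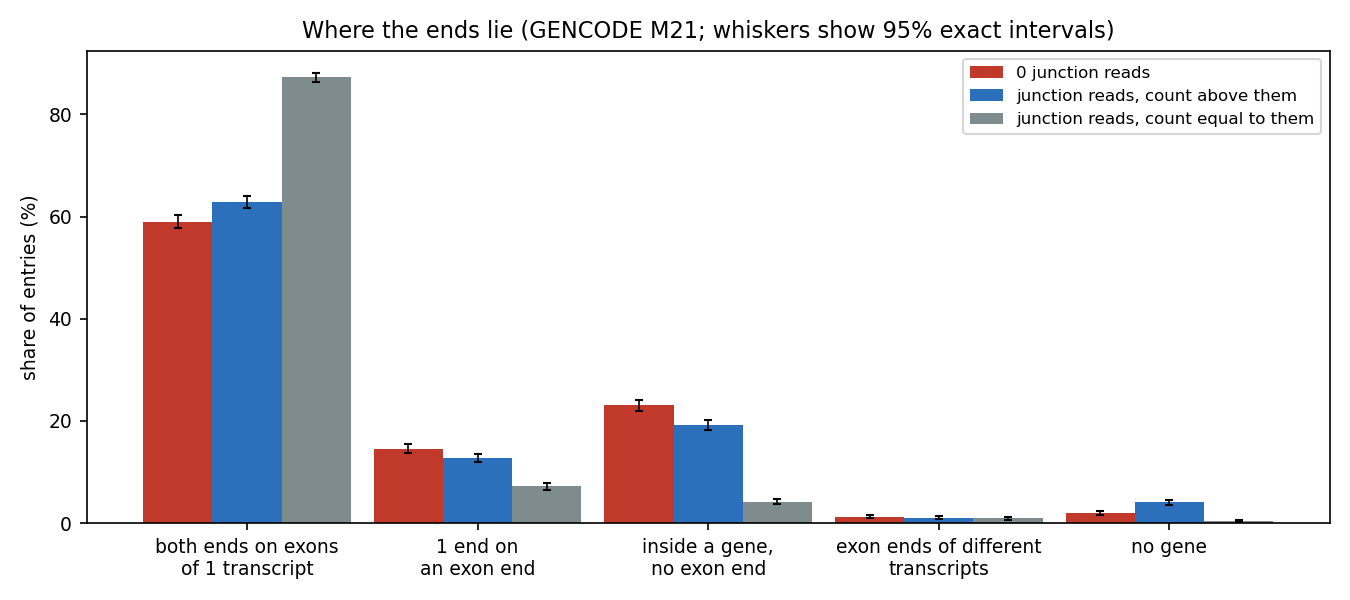
Share of entries (vertical axis, percent, with exact 95% intervals) by where the interval ends lie in GENCODE M21, for entries with 0 junction reads (left bar of each group), entries whose count exceeded their junction reads (middle) and entries whose count equalled them (right). Intervals labelled inside a gene are those that overlapped a gene with no end on an exon end. They made up 23.1% of entries with 0 junction reads. The share was 19.2% where the count exceeded the junction reads and 4.15% where it equalled them.

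The sequence on the exon side of the junction differed little between the sets. The last 2 bases of the interval were AG, the usual end of an exon before the splice donor, in 58.1% of exonic entries without junction reads (interval 56.5 to 59.7), in 55.4% of those with them (interval 54.4 to 56.4) and in 56.0% of all internal exons of protein-coding transcripts. The first base was G in 47.4% without junction reads, 46.1% with them and 48.1% of all internal exons. GC content of the exons had a median of 49.6% without junction reads and 48.6% with them. An exon of the same transcript next to a boundary began or ended with at least 80% the same bases over 20 nt in 1 of 3614 exonic entries without junction reads, in the actin-binding gene Cttn, and in 7 of 9159 with them.

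Most entries without junction reads stood alone in the table. No other entry of the library overlapped 3531 of them (57.7%, interval 56.4 to 58.9), against 3664 entries with junction reads (30.0%). The share was 57.2% where the count exceeded the junction reads, and 2.89% where it equalled them, so entries with a count equal to their junction reads nearly always overlapped another. A start or an end was shared with an entry that has junction reads by 1072 entries without junction reads (17.5%), by 46.5% of those with them, by 20.6% of those whose count exceeded the junction reads and by 72.3% of those whose count equalled them.

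Of the entries without junction reads, 3810 (62.2%) named a host with another entry that has junction reads. The share was 77.0% among entries with junction reads and 62.0% where their count exceeded the junction reads. Such an entry overlapped 2057 entries without junction reads (33.6%), 60.8% of those with them and 36.1% of those whose count exceeded the junction reads. A total of 195 entries without junction reads named no host (3.19%), against 459 with them (3.76%).

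**Figure D3:**
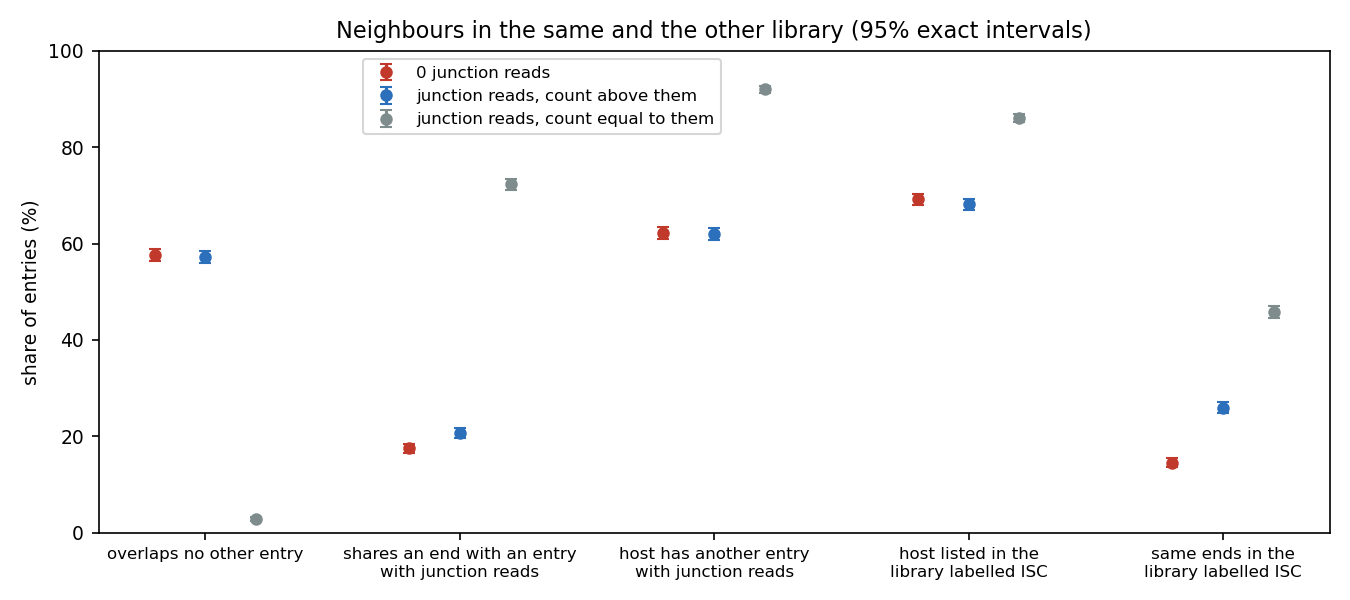
Share of entries (vertical axis, percent, points with exact 95% intervals) that had each property on the horizontal axis, for entries with 0 junction reads (left point), entries whose count exceeded their junction reads (middle) and entries whose count equalled them (right). The left and middle points lie close together for the 3 properties within the library and for the host being listed in the library labelled ISC, and apart for the same ends in that library, at 14.6% and 26.0%.

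An entry with the same start and end was found in the library labelled ISC, always with junction reads, for 891 of 6122 entries without junction reads (14.6%, interval 13.7 to 15.5). It was found for 4375 entries with junction reads (35.9%, interval 35.0 to 36.7), and for 28.7% of all entries of the library. The share was 26.0% (interval 24.9 to 27.1) where the count exceeded the junction reads and 45.8% where it equalled them. For 5231 entries without junction reads no junction read was thus recorded in either table. At least 5 junction reads were found in the library labelled ISC for 335 entries without junction reads (5.47%) and for 2647 with them (21.7%), where the share over all entries was 16.3%.

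Which entries had a counterpart differed by where their ends lay. Among entries bounded by internal exons 20.8% of those without junction reads and 43.6% of those with them had one, and the share was 36.2% where the count exceeded the junction reads. Among intervals that overlapped a gene with no end on an exon end it was 1.13% without junction reads and 2.46% with them. The 891 entries with a counterpart had a median count of 16 and a median span of 6177 nt, and both ends lay on exon ends in 85.3%. The 5231 without one had a median count of 20, a median span of 4001 nt and exon ends at both sides in 56.1%, and they held 1844753 reads.

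The counterparts in the library labelled ISC were mostly of low depth. They had a median of 3 junction reads (quartiles 2 and 6, up to 149) and 5025 in all, 3.21% of that library's junction reads, and 374 of the 891 had 1 or 2 reads. Counterparts of entries with junction reads had a median of 7 and held 66.9% of the junction reads. Seen from the library labelled ISC, entries without junction reads in the library labelled non-ISC took up 3.72% of entries with 1 or 2 junction reads, 6.13% of those with 10 to 49 and 0.445% of those with at least 50, which is 2 of 449. For 808 of the 891 a level in the library labelled non-ISC 2-fold lower than in the library labelled ISC was not detectable at this depth, since 0 reads allow a level above that.

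Ptpn14, a protein tyrosine phosphatase gene, had the counterpart with the most junction reads. It and the 9 entries after it were selected on 0 junction reads under the label non-ISC and then ranked by the library labelled ISC, so the gap between the libraries follows from the selection and is no result. Its entry over exons 2 to 3 had a count of 29 and 0 junction reads in the library labelled non-ISC, against a count of 149 with all 149 reads on the junction in the library labelled ISC. Arpp21, a gene for a cAMP-regulated phosphoprotein, had a count of 12 without junction reads in the library labelled non-ISC. In the library labelled ISC its count was 61, with all 61 reads on the junction. Mad1l1, a spindle checkpoint gene, had a count of 4 in the library labelled non-ISC. In the library labelled ISC its count was 48, with all 48 reads on the junction.

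Further entries had from 47 to 33 junction reads in the library labelled ISC. Acbd6, an acyl-CoA binding protein gene, had a count of 16 in the library labelled non-ISC, against 47 junction reads in the library labelled ISC. Likewise Cacna1e, a voltage-gated calcium channel gene, had a count of 2 against 44 junction reads, and the kinase gene Map4k2 a count of 81 against 40. Tmem26 had a count of 4 against 39 junction reads, and Rest, a repressor of neuronal genes, a count of 82 against 39. The ubiquitin ligase gene Rnf115, listed as fantom3_A630071N02, had a count of 12 against 34 junction reads. Ino80c, a subunit gene of a chromatin remodeller, had a count of 46 against 33. Counts and junction reads are unlike measures, so these pairs do not show under which label an entry had more reads. In the order named in this paragraph, the counts under the label ISC were 199, 44, 552, 92, 179, 82 and 148. All 10 were bounded by internal exons. The highest count among entries with a counterpart was 2360 reads for Atp5a1, the alpha subunit of ATP synthase. In the library labelled ISC it had a count of 479 and 2 junction reads.

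**Figure D4:**
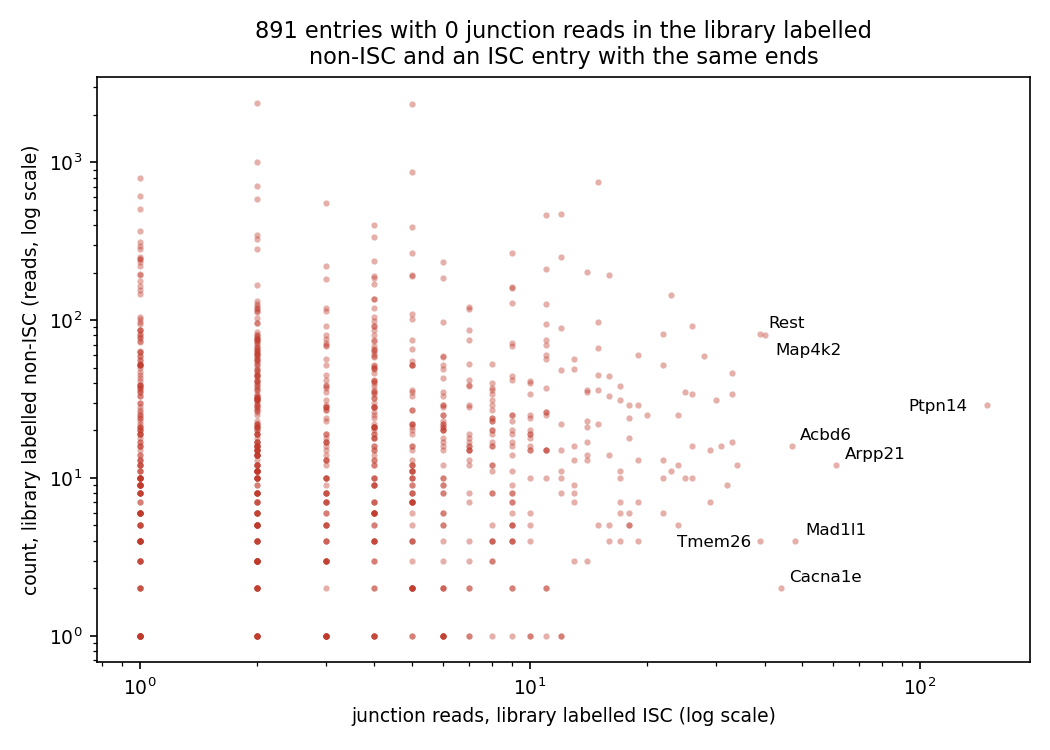
Count in the library labelled non-ISC (vertical axis, reads, log scale) against junction reads in the library labelled ISC (horizontal axis, log scale) for the 891 entries that had 0 junction reads under the label non-ISC and an entry with the same ends in the other library; each point is 1 entry. Most points have few junction reads, with a median of 3, and Ptpn14 stands farthest to the right with 149.

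Entries without junction reads were spread over many hosts. They named 4099 hosts, of which 2904 had 1 such entry (70.8%), 786 had 2 and 409 had at least 3. No entry with junction reads in the same library was listed for 1761 of these hosts (43.0%, interval 41.4 to 44.5), which held 2117 entries and 395175 reads. For comparison, the library named 6584 hosts, of which 4823 had entries with junction reads, and only 2338 of these 4823 also had entries without. Of those 1761 hosts, 843 were listed in the library labelled ISC and 918 were not, and 180 had at least 10 junction reads there. In the 2338 hosts with both kinds, the median count of entries without junction reads was higher than that of entries with them in 1434 (61.3%), lower in 848 and equal in 56. Set against entries whose count exceeded their junction reads, it was higher in 697 of 1733 hosts (40.2%) and lower in 1018.

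Dmbt1, which encodes a secreted scavenger receptor of mucosal epithelia, and Dnahc8, an axonemal dynein heavy chain gene, had the most entries without junction reads, 13 each. Those of Dmbt1 had 2699 reads, from 1 to 623, and 11 of the 13 had no end on an exon end. Dmbt1 also had 9 entries with 75 junction reads in the same library and no entry in the other one. Those of Dnahc8 had 131 reads, from 1 to 26, and 11 of the 13 were bounded by internal exons. Dnahc8 had 12 entries with 53 junction reads in the same library, against 32 entries with 150 junction reads in the library labelled ISC, 4 of which matched an entry of the 13.

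Epithelial genes were among the next hosts. Krt8, a keratin of simple epithelia, had 6 entries without junction reads with 8220 reads, from 87 to 4404, and 2 entries with 7 junction reads. None of the 6 was bounded by exons at both sides. The one with 4404 reads covered 280 nt at chr15:102003898-102004177 and is shown with its junction because 1 end lay on an exon end.
Krt8, minus strand: TCCTTCATTGACAAGcagccgctcgttcac
Myo5b, a motor of apical recycling endosomes, had 7 entries with 1070 reads and 11 entries with 87 junction reads. Kcnq1, a potassium channel gene, had 6 with 1692 reads, and Lrig1, an inhibitor of ErbB receptors expressed by intestinal stem cells, 6 with 395 reads. Ago2, the slicer of RNA interference, had 7 entries with 493 reads, Wdfy3, an autophagy adaptor gene, 7 with 346 and Fryl 6 with 542 reads beside 182 junction reads on 11 other entries.

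Hosts with entries without junction reads alone in the library labelled non-ISC included strong hosts of the other library. These hosts had no junction read in the library labelled non-ISC and were ranked by junction reads in the library labelled ISC, after the values were seen. The gap between the libraries thus follows from the selection and is no result. The RNA 2610307P16Rik had 1 entry with a count of 69 in the library labelled non-ISC. In the library labelled ISC it had 27 entries with a summed count of 1190 and 390 junction reads. Epsti1, an interferon-induced gene, had 2 entries with 20 reads in the library labelled non-ISC. In the library labelled ISC it had 9 entries with a summed count of 408 and 340 junction reads. Arpp21 had 254 junction reads in the library labelled ISC, Sh3kbp1, an adaptor gene of receptor endocytosis, 244, Ptpn14 159 and Lyst, a gene of lysosomal trafficking, 104, and each of these 4 had 1 entry in the library labelled non-ISC.

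The hosts of the 5 entries with the most junction reads were chosen by the same values that define entries without junction reads. How few such entries they had is therefore a description only. Btnl1 had 2258 junction reads on 1 entry, Gigyf2 770, Rasa2 584, Rbm4 583 and Zfp827 430. In that order the hosts had 5, 10, 9, 8 and 14 entries with junction reads. Of these 5 hosts only Rasa2 had an entry without junction reads, with a count of 27. The share over all entries of the library was 33.4%.

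Across 15 lists of genes, the share of entries without junction reads ranged from 6.25% to 50.0%, against 33.4% of all entries. It was lowest for T lineage genes, 2 of 32 entries (6.25%, interval 0.766 to 20.8), both in Tox, a transcription factor gene of T cell development. Enterocyte genes had 24 of 161 (14.9%, interval 9.79 to 21.4). They included 3 entries of the brush border peptidase gene Dpp4 with 99 reads and 2 of Cdhr2, a brush border protocadherin gene, with 2363 reads. Genes known to host widely abundant circular RNAs had 40 of 238 (16.8%, interval 12.3 to 22.2), with 4 entries each in Foxp1 and Pds5a. Chromatin regulators had 75 of 300 (25.0%, interval 20.2 to 30.3), among them 5 each in Baz2b and Ash1l.

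The intervals of the other 11 lists covered the 33.4% of all entries. The Lgr5 stem cell list had 31 of 72 entries (43.1%, interval 31.4 to 55.3), led by 6 in Lrig1 and 3 in the crypt gene Olfm4, whose 242 reads stood beside a single junction read. Cell division genes had 53 of 138 (38.4%, interval 30.3 to 47.1), led by 6 in Top2a, the replicative topoisomerase gene, and 4 in the kinetochore gene Kntc1. Epithelial junction and keratin genes had 53 of 144 (36.8%), RNA-binding and splicing genes 45 of 133 (33.8%) and ubiquitin ligase genes 66 of 217 (30.4%). Abundant noncoding RNA genes had 12 of 39 (30.8%), myeloid genes 7 of 28 (25.0%) and goblet and Paneth genes 4 of 23 (17.4%), with 3 in the lysozyme gene Lyz1 holding 2114 reads. Enteroendocrine and tuft genes had 8 of 19 (42.1%), stromal, muscle and endothelial genes 5 of 11 (45.5%) and B and plasma cell genes 4 of 8 (50.0%). A counterpart in the library labelled ISC, which 14.6% of all entries without junction reads had, was found for 0 of 31 entries of the stem cell list, 0 of 24 of the enterocyte list, 0 of 53 of the epithelial junction and keratin list, 0 of 8 of the enteroendocrine and tuft list, 0 of 4 of the goblet and Paneth list and 0 of 2 of the T lineage list. It was found for 12 of 53 cell division entries, 3 of them in Top2a, 15 of 75 chromatin entries, 13 of 66 ubiquitin ligase entries, 6 of 45 RNA-binding and splicing entries and 5 of 40 entries of widely abundant hosts. The remaining lists had 2 of 4 for B and plasma cells, 2 of 7 for myeloid cells, 1 of 5 for stromal, muscle and endothelial cells and 1 of 12 for abundant noncoding RNAs.

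**Figure D5:**
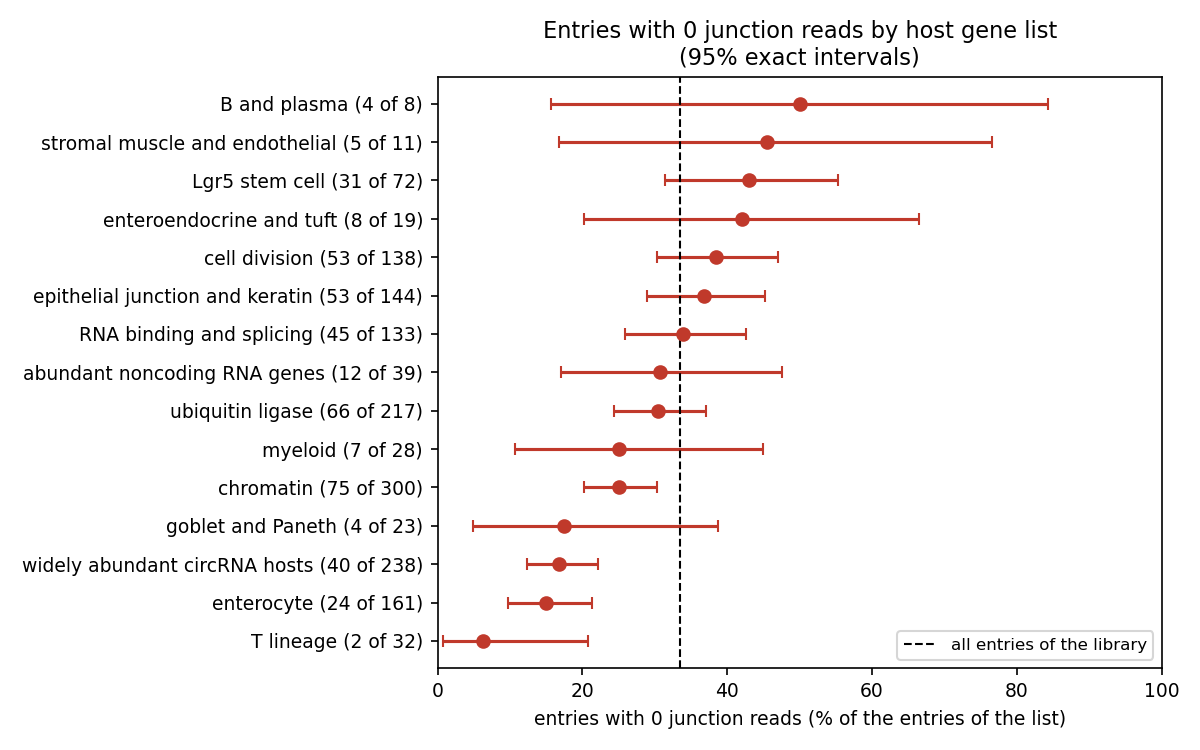
Share of a list's entries with 0 junction reads (horizontal axis, percent, points with exact 95% intervals) for 15 lists of host genes (vertical axis, with the number of such entries and of all entries) in the library labelled non-ISC; the dashed line marks the 33.4% of all entries. The intervals of T lineage, enterocyte, widely abundant host and chromatin lists lie below the line, and those of the other 11 lists cross it.

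On the chromosomes with at least 100 entries, the share of entries without junction reads ran from 30.0% on chromosome 19 to 38.7% on chromosome 15. The mitochondrial chromosome had 54 entries, each with junction reads, and 0 of 54 allows a share of up to 6.60%.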

How the data were processed

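One RNase R-treated library was analysed per group. Reads were trimmed with Trimmomatic 0.36 and checked with FastQC, and mm9 was named, per the submitters' processing notes; aligner, circular RNA caller and counting rule: not given in the sources used here. Count and junction columns hold whole reads, as deposited and per the file headers. The deposited RPM is the count scaled to a library total, 72271995 reads for non-ISC and 52636694 for ISC. Although mm9 was named, 70.8% of entries had both ends on GENCODE M21 (GRCm38) exon ends, so that annotation was used.

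Entries were matched between libraries by exact chromosome, start and end. Overlap meant at least 1 nt. An exonic entry starts and ends at internal exons of 1 transcript, and exon numbers follow that transcript. Exact Clopper-Pearson 95% intervals used SciPy 1.17.1, with pandas 2.3.3 on Python 3.11.15. Entries of 1 gene may share reads, which was not tested, and cannot be taken as independent. Intervals are therefore too narrow as measures of biological spread. Scripts were tested on simulated data. With 1 library per group no test was run. The entries, lists and comparisons were chosen with earlier results of these data known. Named were the 10 entries with the highest count, the 10 with the most junction reads in the other library, the 3 longest and 3 shortest, the 10 hosts by entries and by summed count, 2 hosts per list, the hosts of the 5 strongest junctions and the extremes of ranges. The exonic entries ranked by count were added after the values were seen. An exonic entry that the ranking would name is not reported here. Splice dinucleotides and repeats were not analysed here, since they need a genome sequence.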

Additional observations from a re-analysis of the deposited data

How the results depend on the processing

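No paired analysis was possible because each group has 1 library. Set against entries with 1 or 2 junction reads, the ratio of median counts was 3.80, the ratio of median spans 0.838 and the difference in the share with both ends on exon ends -7.10 percentage points, against 2.375, 0.766 and -15.8 with all entries that have junction reads. Set against entries whose count exceeded their junction reads, a choice made after seeing the data, they were 0.731, 0.949 and -3.69, so the direction for the count reversed; that setting by construction removes the entries with the lowest counts. The span ratio was 0.761 without mitochondrial and unplaced sequences and 0.836 at a count of at least 5. The share with a counterpart in the library labelled ISC was 5.47% at 5 junction reads or more, and 13.9% to 14.9% under the other 4 settings. Any overlap in place of a shared host gave 33.6%, against 62.2%. Over the 15 gene lists, the entries without junction reads were 27.4% of entries and 62.1% of the count. Without the abundant noncoding RNA genes, whose 12 such entries held 1129607 of 1171832 reads, they were 27.4% of entries and 22.6% of the count, also a choice made after seeing the data. Per list the share of the count stayed within the interval of the share of entries for 11 lists, and 3 of the other 4 were higher. A tolerance of 5 nt changed no direction. RPM is the count scaled to 1 library total, so its ratio of medians equals that of the count by construction and is no check. Splice dinucleotides with their strand setting and a second build were not run. Depth limits the comparison between libraries: for 808 of 891 entries with a counterpart, a junction level 2-fold lower in the library labelled non-ISC was not detectable.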
